A study of Mus musculus with 41 samples.

Results

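The 6 genes Gadd45a, Cdkn1a, Mdm2, Phlda3, Ccng1 and Trp53inp1, known as p53 targets and growth arrest genes, were followed through the day in epidermal stem cells of mice on a high fat or a control diet. They were found by symbol in the platform annotation, as 6 of the 17097 genes and with 11 of the 45141 probe sets on the arrays. Gadd45a and Phlda3 have 1 probe set each, Cdkn1a, Mdm2 and Trp53inp1 have 2 and Ccng1 has 3, and each gene is given by its brightest probe set, taken by the mean of the 41 arrays. RNA was measured on 41 arrays, 21 from the high fat diet and 20 from the control diet. All mice were wild type females of the strain C57B6/J, ate freely from 8 weeks of age and were collected after 7 weeks of feeding, at an age of 15 weeks. Collection was at zeitgeber times (ZT) 0, 4, 8, 12, 16 and 20, in hours. The high fat groups held 3, 4, 2, 4, 4 and 4 arrays in that order of time, and the control groups 4, 3, 2, 3, 4 and 4. Numbered replicates are not stated to be separate mice, so p-values reflect only how arrays of a group vary. The mice killed on 1 day belonged to 1 time point, so collection day and time of day cannot be told apart.

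The transcription factor p53 is kept scarce by Mdm2, its ubiquitin ligase, and is stabilised after DNA damage and other stresses. It then switches on genes that stop the cell cycle, repair DNA or start cell death, and it also switches on Mdm2, which closes a negative feedback loop. Several of these genes, Cdkn1a and Gadd45a among them, also answer to growth factors, stress kinases and differentiation signals without p53, and Cdkn1a takes part in the exit of basal keratinocytes from the cell cycle. Trp53, the gene of p53 itself, was not analysed here.

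Values are RMA values on the log2 scale, made by the authors, so a step of 1 is a doubling of signal. Array medians lay between 6.41 and 6.44. Signals of different probe sets do not rank their RNAs, and signal over background is unknown because scanner files were not used here, so marker signals are listed without a call on which cells were present. Over all arrays the 11 basal keratinocyte markers averaged between 10.22 (Itga3) and 12.75 (Col17a1), the 10 bulge markers between 5.30 (Cd34) and 12.02 (Krt15), the 12 suprabasal markers between 4.32 (Flg) and 12.57 (Krt1) and the 11 leukocyte and Langerhans cell markers between 4.33 (Ptprc) and 9.96 (Epcam). At ZT8, 3 of the 4 arrays stood apart, high fat replicate 2 and both control arrays. The basal markers averaged 11.60 and 10.78 in high fat replicates 1 and 2 at ZT8, against 10.88 and 10.98 in control replicates 1 and 2, and group means lay between 11.59 and 11.80 at the other times. The suprabasal markers averaged 9.34 and 10.19 in the same high fat arrays, against 10.24 and 10.04 in the control arrays, and 9.18 to 9.48 at the other times. High fat replicate 1 thus lay near the other times in both lists. In such bulk samples, fewer cells of a type and less RNA per cell cannot be told apart.

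The promoters of Cdkn1a and Mdm2 are shown because these genes moved together over the 12 groups. RefSeq (GRCm38.p6) gave 6 windows, each running over 250 bases before and 50 bases after an annotated start, for 5 of the 6 genes: 2 for Cdkn1a and 1 each for Gadd45a, Mdm2, Phlda3 and Ccng1. Capitals mark a match to a pair of p53 half-site cores, CATG and CATG with 6 bases of any kind between them, and the windows are chr17:29090729-29091028 on the plus strand for Cdkn1a and chr10:117710709-117711008 on the minus strand for Mdm2.
Cdkn1a: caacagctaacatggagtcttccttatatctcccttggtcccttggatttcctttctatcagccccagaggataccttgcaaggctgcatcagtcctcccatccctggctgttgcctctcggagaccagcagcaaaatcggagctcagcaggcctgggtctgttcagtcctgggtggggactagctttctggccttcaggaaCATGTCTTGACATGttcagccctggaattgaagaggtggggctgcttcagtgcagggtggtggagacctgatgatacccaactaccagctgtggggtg
Mdm2: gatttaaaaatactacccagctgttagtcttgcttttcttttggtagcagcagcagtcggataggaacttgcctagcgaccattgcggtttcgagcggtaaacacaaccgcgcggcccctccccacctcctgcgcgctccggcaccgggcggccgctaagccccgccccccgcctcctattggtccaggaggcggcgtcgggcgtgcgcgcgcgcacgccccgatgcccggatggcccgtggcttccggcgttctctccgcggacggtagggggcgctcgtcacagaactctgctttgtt
The Cdkn1a match, CATGTCTTGACATG, begins at position -48 from the annotated start of the window shown and reads the same way on both strands in its fixed letters. This start is the upstream one of the 2 of Cdkn1a. The window of the other start, chr17:29093519-29093818, lies downstream and holds no match. The motif occurs in 234 of 32851 RefSeq promoter windows of this length, or 0.712%, and in none of the other 5 windows of these genes. The E-box CACGTG, which occurs in 7.15% of all windows, the core AGGTCA of the ROR element, in 16.3%, and the glucocorticoid element, AGAACA and TGTTCT with 3 bases of any kind between them, in 0.00913%, were searched on both strands and matched none of the 6. A match describes the letters only. For p53 only this pair of CATG cores was searched, so a window without a match may still hold a p53 element with other letters. The p53 element known for Mdm2 lies in its first intron, beyond this window.

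Gadd45a was higher on the high fat diet when the time points were averaged, but it passed at no single time point. That result was lost without ZT8 or without ZT12. Mdm2 and Trp53inp1 were called at single times of day. Each of those calls was lost without certain single arrays, and also with its time point fitted alone. For every gene and time point, high fat minus control was tested with limma with the means of the 12 groups as coefficients and with Benjamini-Hochberg adjustment over all 17097 genes and a threshold of 0.05. Averaged over the 6 time points with equal weight, called the diet average here, 1 of the 6 genes passed, against 7.59% of all genes. The median difference of the 6 was -0.03 on the log2 scale, beside 0.02 for all genes.

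**Figure D1:**
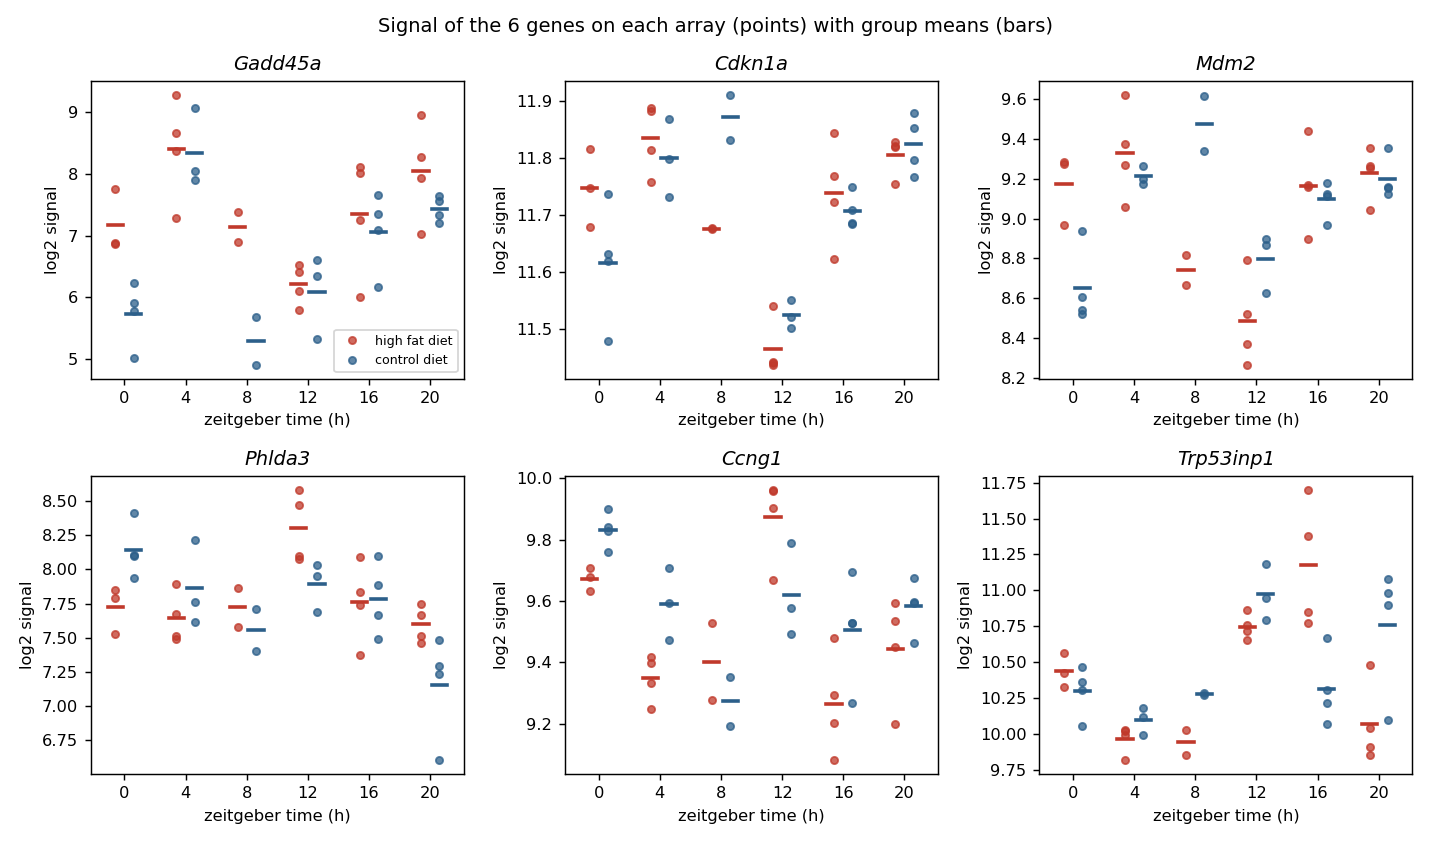
Log2 signal (y axis) of the 6 genes on each array against zeitgeber time in hours (x axis), high fat diet in red on the left and control diet in blue on the right of each time point, with bars for group means. Gadd45a at ZT8 sits between 6.90 and 7.38 in high fat arrays, above 4.89 and 5.67 in control arrays, and Trp53inp1 at ZT16 sits between 10.77 and 11.70 in high fat arrays, above all control arrays.

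Gadd45a encodes a small stress protein that binds PCNA and p21 and activates the stress kinase pathway through MEKK4. At ZT0 Gadd45a read 6.87, 6.87 and 7.76 in high fat arrays, against 6.23, 5.91, 5.78 and 5.01 in control arrays. At ZT4 it read 8.67, 8.38, 7.28 and 9.29 in high fat arrays, against 8.04, 7.91 and 9.08 in control arrays. At ZT8 it read 7.38 and 6.90 in high fat arrays, against 5.67 and 4.89 in control arrays. The ranges were apart at ZT0 and ZT8, with all high fat arrays higher, and overlapped at ZT4. At ZT12 Gadd45a read 6.53, 6.41, 6.09 and 5.80 in high fat arrays, against 6.34, 6.61 and 5.31 in control arrays. At ZT16 it read 6.00, 8.01, 8.12 and 7.26 in high fat arrays, against 7.08, 7.34, 6.16 and 7.66 in control arrays. At ZT20 it read 7.02, 7.93, 8.97 and 8.27 in high fat arrays, against 7.20, 7.57, 7.33 and 7.64 in control arrays. From ZT12 to ZT20 the diets overlapped at each time point, and at ZT16 high fat replicate 1 lay below all control arrays while high fat replicates 2 and 3 lay above them.

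On the diet average Gadd45a was 7.39 in high fat arrays and 6.66 in control arrays, a rise of 0.73 ± 0.20 (SE), or 1.66-fold (limma, adjusted p = 0.0233). The difference was positive at 6 of 6 time points. It was largest at ZT8, 1.86 ± 0.62 (3.62-fold, adjusted p = 0.0574), and at ZT0, 1.44 ± 0.47 (2.71-fold, adjusted p = 0.147), and passed at no single time point. At the other 4 time points the differences lay between 0.06 at ZT4 and 0.62 at ZT20, and a diet effect that varied with the time point was not called (adjusted p = 0.22). The call was lost when either ZT8 or ZT12 was left out: without the ZT8 arrays the diet average was 0.50 (adjusted p = 0.144) and without the ZT12 arrays 0.85 (adjusted p = 0.0611). Without high fat ZT8 replicate 1 it was 0.69 (adjusted p = 0.0544) and without control ZT8 replicate 2 it was 0.67 (adjusted p = 0.0726). The 15 S phase markers, all measured, averaged 7.47 in high fat arrays and 6.93 in control arrays at ZT8, and their part in the result was not tested.

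The 2 relatives of Gadd45a, Gadd45b and Gadd45g, which encode stress proteins of the same family, were also higher on the high fat diet. Gadd45b averaged 8.89, 10.42, 9.10, 9.02, 9.43 and 10.46 in high fat groups between ZT0 and ZT20, against 8.27, 10.38, 8.20, 8.61, 9.60 and 10.14 in control groups. Gadd45g averaged 7.66, 8.47, 7.75, 7.68, 7.98 and 8.17 in high fat groups, against 7.43, 8.13, 7.10, 7.25, 7.78 and 7.83 in control groups. High fat means were above control means at every time point for Gadd45g, and at every time point except ZT16 for Gadd45b. On the diet average Gadd45b rose by 0.36 ± 0.06 (adjusted p = 0.00066) and Gadd45g by 0.37 ± 0.06 (adjusted p = 0.000744), about 1.28-fold and 1.29-fold. Both kept the call when any 1 of the 41 arrays was left out. With the ZT8 and ZT12 arrays left out, Gadd45b lost it (0.20, adjusted p = 0.0724) and Gadd45g kept it (0.28, adjusted p = 0.0357). At ZT8 the differences were 0.91 ± 0.18 for Gadd45b and 0.66 ± 0.19 for Gadd45g (adjusted p = 0.00189 and 0.0275). Gadd45b and Gadd45g also passed at ZT12, at 0.41 ± 0.14 and 0.43 ± 0.14 (adjusted p = 0.0353 and 0.0345), where Gadd45a differed by 0.12 ± 0.47 (adjusted p = 0.893).

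**Figure D2:**
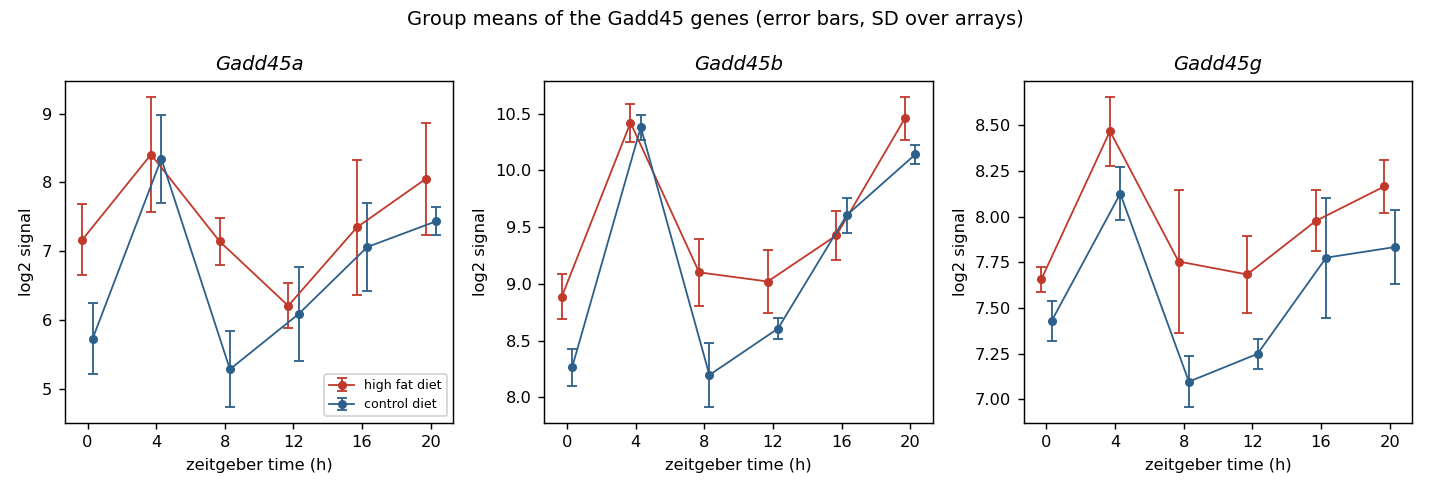
Group means of log2 signal (y axis) of Gadd45a, Gadd45b and Gadd45g against zeitgeber time in hours (x axis), high fat diet in red and control diet in blue, with error bars for the SD over the 2 to 4 arrays of a group. The genes were high at ZT4 and ZT20 in both diets, and their high fat means at ZT8, 7.14, 9.10 and 7.75, lie above the control means, 5.28, 8.20 and 7.10.

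Cdkn1a encodes p21, an inhibitor of the cyclin-dependent kinases that drive the cell into S phase. At ZT0 Cdkn1a read 11.81, 11.68 and 11.75 in high fat arrays, against 11.48, 11.63, 11.62 and 11.74 in control arrays. At ZT8 it read 11.68 and 11.68 in high fat arrays, against 11.91 and 11.83 in control arrays. At ZT12 it read 11.44, 11.44, 11.54 and 11.44 in high fat arrays, against 11.55, 11.50 and 11.52 in control arrays. Only at ZT8 were the ranges of Cdkn1a apart, with high fat lower, and at ZT12 both diets were at their lowest of the day. Across the other time points Cdkn1a ran between 11.62 and 11.89 in high fat arrays and between 11.68 and 11.88 in control arrays. The largest difference of Cdkn1a was -0.20 ± 0.07 at ZT8 (limma, adjusted p = 0.0647), and the diet average was -0.01 ± 0.02 (adjusted p = 0.762). The lower probe set of Cdkn1a, which followed the main one with r = 0.865 over 41 arrays, gave -0.15 ± 0.10 at ZT8 and 0.24 ± 0.07 at ZT0, neither past the threshold (adjusted p = 0.365 and 0.0993).

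Mdm2 differed in opposite directions at ZT0 and ZT8. At ZT0 Mdm2 read 9.27, 8.97 and 9.28 in high fat arrays, against 8.61, 8.54, 8.52 and 8.94 in control arrays. At ZT8 it read 8.82 and 8.67 in high fat arrays, against 9.61 and 9.34 in control arrays. At ZT12 it read 8.27, 8.52, 8.79 and 8.37 in high fat arrays, against 8.89, 8.63 and 8.87 in control arrays. All high fat arrays were above all control arrays at ZT0 and below them at ZT8, and at ZT12 only high fat replicate 3 reached into the control range. At ZT4 Mdm2 read 9.38, 9.62, 9.06 and 9.27 in high fat arrays, against 9.26, 9.18 and 9.20 in control arrays. At ZT16 it read 8.90, 9.44, 9.16 and 9.17 in high fat arrays, against 8.97, 9.12, 9.12 and 9.18 in control arrays. At ZT20 it read 9.36, 9.04, 9.25 and 9.26 in high fat arrays, against 9.12, 9.35, 9.15 and 9.16 in control arrays. The diets overlapped at these 3 times.

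At ZT0 Mdm2 was 0.52 ± 0.13 higher on the high fat diet, or 1.44-fold (limma, adjusted p = 0.0402), the 1 of the 6 genes called there, against 0.854% of all genes, 0.450% higher and 0.404% lower. At ZT8 it fell by 0.73 ± 0.17 to 0.602 of the control level (adjusted p = 0.00544), again the 1 of the 6 called, against 8.34% of all genes, 5.42% higher and 2.92% lower. At ZT12, where 18.0% of all genes passed, none of the 6 did, with Mdm2 at -0.31 ± 0.13 (adjusted p = 0.0892), and 3 of the 6 had an unadjusted p under 0.05, as did 32.0% of all genes. The effect of diet on Mdm2 differed between time points (F test of 5 coefficients, adjusted p = 0.0013). With ZT8 and ZT12 both left out, a choice made after seeing the data, that difference was not called (adjusted p = 0.194). The ZT0 call depended on single arrays: it was lost without any 1 of the high fat replicates 1, 2 and 3 or the control replicates 1, 2 and 3 of ZT0, with differences between 0.47 and 0.63 and adjusted p between 0.0557 and 0.212. It was also lost with the ZT0 arrays fitted alone (adjusted p = 0.118) and with the mean of both probe sets (0.32, adjusted p = 0.16). The ZT8 call was lost without control ZT8 replicate 1 (-0.60, adjusted p = 0.0607), and with the ZT8 arrays fitted alone none of the 6 genes was called. Of the high fat arrays at ZT8, replicate 2 resembled the control arrays in its basal and suprabasal markers and replicate 1 did not. The Mdm2 difference was -0.81 without high fat replicate 1 and -0.66 without high fat replicate 2, each resting on 1 high fat array. The part of cell types in it was not tested.

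The 2 probe sets of Mdm2 correlated at r = 0.741 over 41 arrays and placed the diet difference at different times. The lower one averaged 7.98 in high fat arrays and 7.86 in control arrays at ZT0, a difference of 0.12 ± 0.14 that was not called (adjusted p over 28898 probe sets = 0.789). At ZT12 it read 7.04, 6.80, 7.11 and 7.30 in high fat arrays, against 7.76, 7.96 and 7.68 in control arrays, with no overlap. There it fell by 0.74 ± 0.14 (adjusted p = 0.000654), and on the diet average it fell by 0.23 ± 0.06 (adjusted p = 0.0165), where the main probe set gave -0.05 ± 0.05 (adjusted p = 0.607). Both probe sets were lower at ZT8 on the high fat diet, the lower one by -0.49 ± 0.19 (adjusted p = 0.0964), and the effect of diet differed between time points by both (adjusted p = 0.0156 for the lower one).

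**Figure D3:**
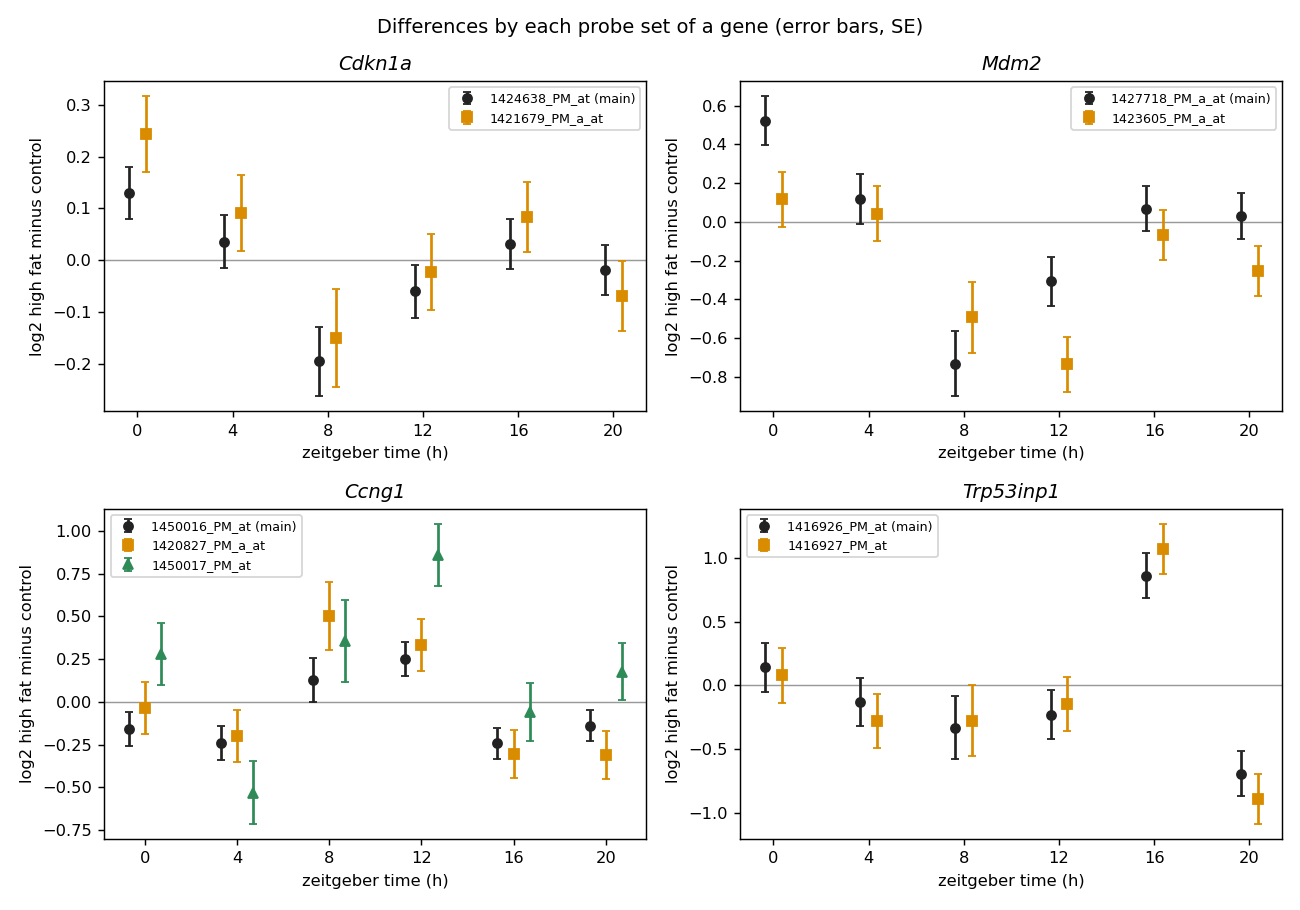
High fat minus control in log2 units (y axis) against zeitgeber time in hours (x axis) for each probe set of the 4 genes that have more than 1, with error bars for the SE of the limma fit. The Trp53inp1 probe sets both stand at 0.86 or above at ZT16 and at -0.69 or below at ZT20, while those of Mdm2 differ at ZT0 (0.52 and 0.12) and at ZT12 (-0.31 and -0.74).

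Phlda3 encodes a protein with a pleckstrin homology domain that competes with the survival kinase Akt for membrane lipids. At ZT0 Phlda3 read 7.85, 7.79 and 7.53 in high fat arrays, against 8.09, 8.41, 8.11 and 7.94 in control arrays. At ZT12 it read 8.07, 8.10, 8.47 and 8.58 in high fat arrays, against 7.69, 8.03 and 7.95 in control arrays. At ZT20 it read 7.46, 7.75, 7.51 and 7.67 in high fat arrays, against 7.29, 7.24, 7.49 and 6.60 in control arrays. The ranges were apart at ZT0, with high fat lower, and at ZT12, with high fat higher, and overlapped at ZT20 through control replicate 3. The differences were -0.42 ± 0.18 at ZT0, 0.42 ± 0.18 at ZT12 and 0.44 ± 0.17 at ZT20, none past the threshold (limma, adjusted p = 0.321, 0.11 and 0.202). At ZT4, ZT8 and ZT16 the differences lay between -0.22 and 0.17. Whether the effect of diet on Phlda3 differed between time points lay at the threshold (adjusted p = 0.0506, and between 0.0317 and 0.102 when 1 array was left out).

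Ccng1 encodes cyclin G1, which brings the phosphatase PP2A to Mdm2. At ZT4 Ccng1 read 9.25, 9.42, 9.40 and 9.33 in high fat arrays, against 9.47, 9.71 and 9.60 in control arrays. At ZT12 it read 9.96, 9.90, 9.96 and 9.67 in high fat arrays, against 9.49, 9.58 and 9.79 in control arrays. At ZT16 it read 9.08, 9.29, 9.20 and 9.48 in high fat arrays, against 9.69, 9.53, 9.53 and 9.27 in control arrays. The ranges were apart at ZT4 and also at ZT0, where 9.63 to 9.71 in high fat arrays lay below 9.76 to 9.90 in control arrays, and they overlapped at ZT12 and ZT16. The differences were -0.24 ± 0.10 at ZT4, 0.25 ± 0.10 at ZT12 and -0.24 ± 0.09 at ZT16 (limma, adjusted p = 0.314, 0.0707 and 0.168), and no time point passed. Together they gave an effect of diet that differed between time points (adjusted p = 0.0334). This call needs ZT12: without the ZT12 arrays the adjusted p was 0.353, and it was lost without any 1 of high fat ZT12 replicates 1, 2 and 3, control ZT12 replicates 1 and 2 and high fat ZT8 replicate 1, at adjusted p between 0.051 and 0.0989.

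The other 2 probe sets of Ccng1 correlated with the main one at r = 0.672 and 0.53 over 41 arrays. The lowest of the 3 read 7.49, 7.80, 6.99 and 7.16 at ZT12 in high fat arrays, against 6.57, 6.36 and 6.58 in control arrays. Its high fat arrays were all higher, and it rose by 0.86 ± 0.18 at ZT12 (adjusted p over 28898 probe sets = 0.00166). The middle one gave 0.33 ± 0.15 at ZT12 (adjusted p = 0.13) and, as the main one did, differed in its diet effect between time points (adjusted p = 0.0313). All 3 were positive at ZT8 and ZT12 and negative at ZT4 and ZT16.

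Trp53inp1 encodes a stress protein that promotes the activation of p53 and also acts in autophagy, and its difference changed sign within 4 h. At ZT12 Trp53inp1 read 10.71, 10.86, 10.76 and 10.65 in high fat arrays, against 11.18, 10.95 and 10.79 in control arrays. At ZT16 it read 11.70, 11.38, 10.77 and 10.85 in high fat arrays, against 10.30, 10.06, 10.22 and 10.67 in control arrays. At ZT20 it read 10.48, 9.85, 10.04 and 9.91 in high fat arrays, against 10.09, 11.08, 10.98 and 10.90 in control arrays. At ZT16 every high fat array lay above every control array. At ZT20 the order was the other way round, except that control replicate 1 fell among the high fat arrays. At ZT8 it read 10.03 and 9.85 in high fat arrays, against 10.27 and 10.28 in control arrays, and at ZT0 and ZT4 the diets overlapped.

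At ZT16 Trp53inp1 rose by 0.86 ± 0.18, or 1.82-fold (limma, adjusted p = 0.0104), the 1 of the 6 genes called there, against 1.24% of all genes, with 0.579% higher. At ZT20 it was lower by -0.69 ± 0.18 and just missed the threshold (adjusted p = 0.0525), and none of the 6 passed, against 0.702% of all genes, while 2 of the 6 and 14.8% of all genes had an unadjusted p under 0.05. The lower probe set, at r = 0.935 with the main one, passed at both times, with 1.07 ± 0.20 at ZT16 and -0.89 ± 0.20 at ZT20 (adjusted p over probe sets = 0.00382 and 0.0276). The effect of diet on Trp53inp1 differed between time points (adjusted p = 0.00125), and did so also with ZT8 and ZT12 left out. The ZT16 call was lost without high fat ZT16 replicate 1 (0.69, adjusted p = 0.0549) or control ZT16 replicate 2 (0.78, adjusted p = 0.0511), and with the ZT16 arrays fitted alone (0.86, adjusted p = 0.143). Leaving out high fat ZT20 replicate 1 moved the ZT20 difference to -0.83 (adjusted p = 0.0329) and leaving out control ZT20 replicate 1 to -0.92 (adjusted p = 0.017), and the call was made without any 1 of 8 arrays. At ZT4, where 0.386% of all genes passed, none of the 6 genes did, and 1 of them had an unadjusted p under 0.05, as did 11.9% of all genes.

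**Figure D4:**
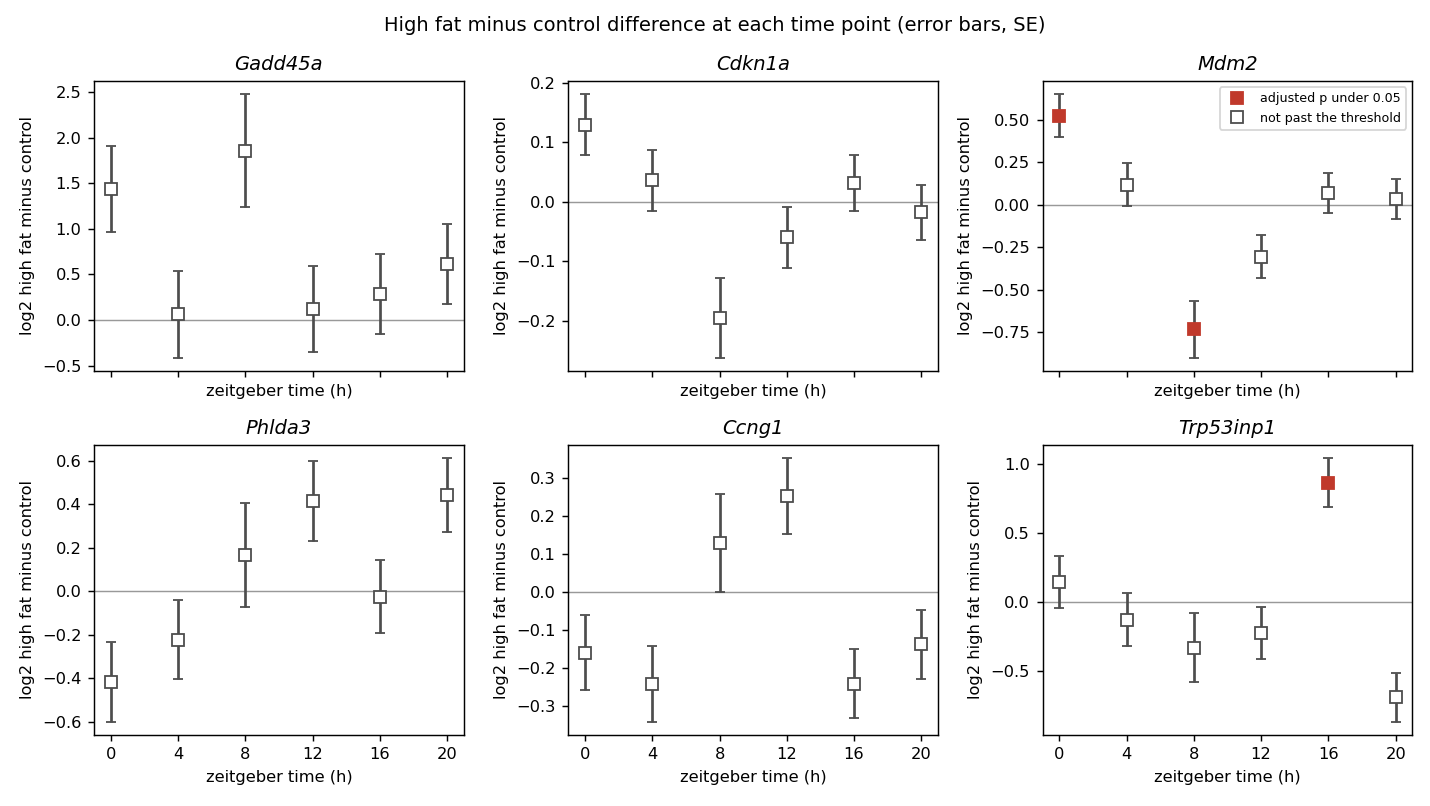
High fat minus control in log2 units (y axis) at each zeitgeber time in hours (x axis) for the 6 genes, each panel with its own scale, with error bars for the SE of the limma fit. Red squares pass the adjusted p of 0.05, Mdm2 at ZT0 (0.52) and ZT8 (-0.73) and Trp53inp1 at ZT16 (0.86), and open squares do not.

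Ranges that did not overlap between the diets were found for 4 of the 6 genes at ZT0, where they were found for 13.4% of all genes, and for 4 at ZT8, where they were found for 46.5%. For 1 of the 6 each they were apart at ZT4, ZT12 and ZT16, and for none at ZT20, where the shares of all genes were 11.2%, 28.2%, 8.64% and 7.56%. An effect of diet that differed between time points was called for 3 of the 6 genes, Mdm2, Trp53inp1 and Ccng1, against 19.0% of all genes. For Cdkn1a it was not called (adjusted p = 0.0594).

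By the main probe sets, all 6 genes changed over the day in both diets by the F test between time points. That test was passed by 41.5% of all genes on the high fat diet and 43.9% on the control diet. The lowest probe set of Ccng1 did not pass it on the control diet (adjusted p over 28898 probe sets = 0.698). On the high fat diet 3 of the 6 passed without the ZT12 arrays, Mdm2, Ccng1 and Trp53inp1, and 2 without the ZT8 and ZT12 arrays, Ccng1 and Trp53inp1. Gadd45a was lowest at ZT12 and highest at ZT4 on the high fat diet, 4.59-fold apart, and lowest at ZT8 and highest at ZT4 on the control diet, 8.33-fold apart. In rising order its time points were ZT12, ZT8, ZT0, ZT16, ZT20 and ZT4 on the high fat diet, and ZT8, ZT0, ZT12, ZT16, ZT20 and ZT4 on the control diet. Of the 5 steps between neighbours in that order, only 1 was beyond the spread of the arrays in each diet: between ZT12 and ZT8 on the high fat diet and between ZT20 and ZT4 on the control diet. The means of Cdkn1a and Mdm2 shared the order ZT12, ZT8, ZT16, ZT0, ZT20 and ZT4 on the high fat diet, over 1.29-fold and 1.79-fold. Only 1 of the 5 steps was without overlap for each gene, ZT12 to ZT8 for Cdkn1a and ZT8 to ZT16 for Mdm2. On the control diet both were highest at ZT8, Cdkn1a 1.27-fold above its lowest time, ZT12, and Mdm2 1.77-fold above its lowest time, ZT0. There 0 of the 5 steps of Cdkn1a were without overlap and 2 of those of Mdm2, ZT12 to ZT16 and ZT4 to ZT8. The ZT8 means come from 2 arrays per diet.

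Phlda3 and Ccng1 had their highest means at the times when Cdkn1a and Mdm2 were low. Both were highest at ZT12 on the high fat diet, 1.63-fold and 1.53-fold above their lowest times ZT20 and ZT16. On the control diet both were highest at ZT0, 1.98-fold and 1.47-fold above ZT20 and ZT8. Of their steps between neighbours, only Ccng1 between ZT20 and ZT0 on the high fat diet was without overlap. Trp53inp1 had its highest mean at ZT16 on the high fat diet, 2.35-fold above ZT8, and at ZT12 on the control diet, 1.84-fold above ZT4. The highest and second highest times overlapped in each diet, ZT16 with ZT12 on the high fat diet and ZT12 with ZT20 on the control diet.

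**Figure D5:**
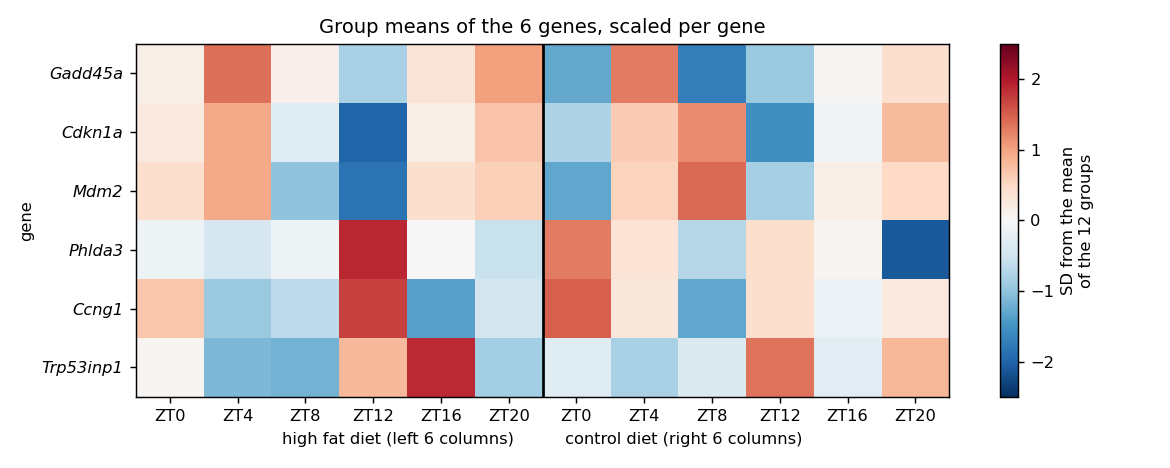
Group means of the 6 genes (rows) in the 12 groups (columns), 6 high fat groups on the left and 6 control groups on the right in order of zeitgeber time, coloured by the distance from the gene's mean over the 12 groups in SD. Cdkn1a and Mdm2 are low together at ZT12, where Phlda3 and Ccng1 are high on the high fat diet. Trp53inp1 has its highest mean at ZT16 on the high fat diet and at ZT12 on the control diet, each overlapping the second highest time.

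By the main probe sets, a 24 h cosine was called on the high fat diet for 3 of the 6 genes, against 11.2% of all genes. On the control diet it was called for none of the 6, against 6.66%. Other probe sets of Ccng1 did pass, the lowest of the 3 on the high fat diet and the middle one on the control diet (limma, adjusted p over 28898 probe sets = 0.0412 and 0.0422). Trp53inp1 had an amplitude, the distance between mean and peak, of 0.48 ± 0.11 with its peak at ZT15.0 (limma, adjusted p = 0.01). Mdm2 had 0.36 ± 0.09 with its peak at ZT23.1 (adjusted p = 0.0146) and Cdkn1a 0.15 ± 0.04 at ZT23.6 (adjusted p = 0.022). On the control diet these amplitudes were 0.24 ± 0.12, 0.10 ± 0.09 and 0.04 ± 0.04, and none of the 6 had an unadjusted p under 0.05, against 21.3% of all genes. The fitted peaks there, without a called cosine, were ZT15.3 for Trp53inp1, ZT9.8 for Mdm2 and ZT1.3 for Cdkn1a. The difference of the cosines between the diets was called for none of the 6, against 3.58% of all genes, and 1 of them, Mdm2, had an unadjusted p under 0.05 (adjusted p = 0.0684), as did 17.5% of all genes. The cosines of Cdkn1a and Mdm2 rest on ZT12: without those arrays the adjusted p was 0.691 and 0.468. With arrays of the same diet and time treated as a random block, none of the 3 was called (adjusted p between 0.342 and 0.436).

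Over the 12 group means, Cdkn1a and Mdm2 correlated at Pearson r = 0.93 (Spearman rho = 0.958), and after the group means were taken out, over 41 arrays, at r = 0.713. Phlda3 ran against both, at r = -0.782 with Cdkn1a and -0.732 with Mdm2, and so did Ccng1, at -0.675 and -0.706. Gadd45a and Trp53inp1 were correlated with no other of the 6 beyond 0.468 in size. These are descriptions over 12 points that share arrays, diets and times. The 13 measured immediate early genes answer within minutes to growth factors and to tissue handling. Their mean correlated over the 12 groups at Pearson r = 0.707 with Gadd45a, 0.661 with Cdkn1a, 0.736 with Mdm2, -0.745 with Phlda3, -0.652 with Ccng1 and -0.048 with Trp53inp1. In the same order Spearman rho was 0.804, 0.545, 0.58, -0.552, -0.483 and -0.028. The immediate early mean was 11.57 in high fat arrays (11.50 to 11.64) and 11.30 in control arrays (11.18 to 11.55) at ZT0. At ZT12 it was 11.31 in high fat arrays (11.16 to 11.43) and 11.52 in control arrays (11.47 to 11.62), and 9 of the 13 genes were called lower, where 4.44% of all genes were. Their part in the results at ZT0 and ZT12 was not tested.

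The genes whose group means ran most like those of each gene were taken by Pearson correlation over the 12 groups, passing over predicted genes. For Gadd45a they were Ier3 (0.96), Tinagl1 (0.957) and Id3 (0.95), of which Ier3 is also on the immediate early list. For Cdkn1a they were Pilrb1 (0.986), C2cd4b (0.962) and Ptpn12 (0.95), and for Mdm2 Zfp516 (0.959), Pilrb1 (0.95) and Kdm7a (0.936), so Pilrb1 was shared. For Phlda3 they were Ephb3 (0.924), Nwd1 (0.921) and Tceanc (0.917), and for Ccng1 Bet1l (0.929), Cd9 (0.929) and Zscan12 (0.919). For Trp53inp1 they were Tsc22d3 (0.912), Herpud1 (0.876) and Ankrd63 (0.866).

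Of 33 other p53 targets, 31 were measured, and on the diet average 1 was higher and 0 were lower, where 5.52% and 2.06% of all genes were. The 1 was Ephx1, the microsomal epoxide hydrolase, at 10.89 in high fat arrays and 10.70 in control arrays (0.19 ± 0.05, adjusted p = 0.0204), and it lost the call without high fat ZT8 replicate 1 (0.13, adjusted p = 0.0804) or control ZT8 replicate 2 (0.19, adjusted p = 0.0519). The median difference of the 31 was 0.002, beside 0.016 for all genes, and 18 of the 31 were positive. At ZT8 Ephx1 was higher by 0.75 ± 0.16 and Plk3, a stress kinase, lower by -0.71 ± 0.17 (adjusted p = 0.00349 and 0.00847). At ZT12, 3 were higher and 2 lower: the carbonyl reductase Dcxr (0.54 ± 0.17), the adenylate kinase Ak1 (0.74 ± 0.23) and Ephx1 (0.34 ± 0.12) on the one side, and Btg2, an antiproliferative gene (-0.52 ± 0.13), and the death receptor Tnfrsf10b (-0.57 ± 0.19) on the other. The shares of all genes at ZT12 were 13.6% higher and 4.44% lower. Between 1 and 7 of the 31 passed at ZT12 when 1 array was left out.

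At ZT0 and ZT16, 1 of the 31 other targets passed each time, against 0.854% and 1.24% of all genes. Both were named after their values were seen. Pmaip1, which encodes the death protein Noxa, averaged 10.46 ± 0.09 in high fat arrays and 9.01 ± 0.28 in control arrays at ZT0 (SD, n = 3 and 4), a rise of 1.45 ± 0.31 or 2.74-fold (limma, adjusted p = 0.0178). The arrays ran between 10.35 and 10.53 on the high fat diet and between 8.77 and 9.40 on the control diet, without overlap. The Pmaip1 call was lost without high fat ZT0 replicates 2 or 3 or control ZT0 replicate 3 (1.38 to 1.44, adjusted p between 0.065 and 0.0966). Sesn1, a sestrin that damps mTORC1 signalling, averaged 10.49 ± 0.17 in high fat arrays and 9.82 ± 0.08 in control arrays at ZT16 (SD, n = 4 each), a rise of 0.67 ± 0.11 or 1.59-fold (adjusted p = 0.00104). Its high fat arrays, 10.39 to 10.74, all lay above the control arrays, 9.74 to 9.89, at the time point where Trp53inp1 rose. At ZT4 and ZT20 none of the 31 passed, against 0.386% and 0.702% of all genes.

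Of 19 p53 family members and regulators, 16 were measured, and 1 was higher and 6 were lower at ZT12, where their median difference was -0.161, beside 0.053 for all genes, of which 13.6% were called higher and 4.44% lower. Rpl11, a ribosomal protein that binds Mdm2, averaged 11.98 in high fat arrays and 11.64 in control arrays (0.34 ± 0.05, adjusted p = 4.7e-05). Mdm4, the partner of Mdm2 in holding p53 down, averaged 9.69 in high fat arrays and 10.31 in control arrays (-0.62 ± 0.16, adjusted p = 0.00807). The p53-binding repair protein Trp53bp1 (-0.38 ± 0.09) and the deubiquitinase Usp7 (-0.23 ± 0.05), which acts on Mdm2 and p53, were also lower (adjusted p = 0.00263 and 0.00302), as were 3 kinases, Atm, Atr and Hipk2. On the diet average 2 of the 16 passed, 1 higher and 1 lower, where 5.52% and 2.06% of all genes were. Rpl11 was higher by 0.07 ± 0.02 and Trp53bp1 lower by -0.12 ± 0.04 (adjusted p = 0.0272 and 0.0306), and neither passed without the ZT8 arrays or without the ZT12 arrays. Rpl11 also lost the call without high fat ZT0 replicate 2 (0.07, adjusted p = 0.0513) or control ZT8 replicate 2 (0.07, adjusted p = 0.0858), and Trp53bp1 without high fat ZT0 replicate 3, high fat ZT8 replicate 1, control ZT8 replicate 2 or control ZT12 replicate 2 (-0.13 to -0.11, adjusted p between 0.0534 and 0.062). At ZT16 the checkpoint kinase gene Chek2, named after its value was seen, was lower by -0.41 ± 0.11 (adjusted p = 0.045). It was the 1 of the 16 called there, against 1.24% of all genes. At ZT8, 2 passed, Rpl11 (0.34 ± 0.07) and the phosphatase Ppm1d (0.57 ± 0.18), both higher (adjusted p = 0.00122 and 0.0461), as were 5.42% of all genes.

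Of the 24 growth arrest genes and cyclin-dependent kinase inhibitors outside the 6, all measured and Btg2 among them as among the p53 targets, 4 were higher and 0 lower on the diet average, where 5.52% and 2.06% of all genes were. Their median difference was 0.069, beside 0.016 for all genes, and 21 of the 24 were positive. Besides Gadd45b and Gadd45g they were Ddit3, a stress transcription factor (0.17 ± 0.03, adjusted p = 0.00204), and Cdkn1c, the kinase inhibitor p57 (0.13 ± 0.04, adjusted p = 0.0288). Cdkn1c lost the call without high fat ZT8 replicate 1, control ZT8 replicate 2 or control ZT12 replicate 2 (0.11 to 0.12, adjusted p between 0.0552 and 0.0882). With ZT8 and ZT12 both left out, 1 of the 4, Gadd45g, passed. At ZT12, 9 were higher and 2 lower, where 13.6% and 4.44% of all genes were, with the cyclin Ccng2 (0.75 ± 0.19), the inhibitor Cdkn2b (0.55 ± 0.13) and the growth arrest gene Gas1 (0.52 ± 0.13) among the higher and Btg2 (-0.52 ± 0.13) and Foxo3 (-0.36 ± 0.10) the lower ones (limma, adjusted p between 0.00435 and 0.00934). At ZT8, Ddit3 rose by 0.52 ± 0.10 (adjusted p = 0.00119) beside Gadd45b and Gadd45g, and none was lower, where 5.42% of all genes were called higher and 2.92% lower. At ZT16, where 1.24% of all genes passed, the 1 gene called was Foxo3, a transcription factor of the insulin pathway, higher by 0.41 ± 0.09 (adjusted p = 0.0163). It was named after its value was seen. Foxo3 lost the call without high fat ZT16 replicate 1 (0.37, adjusted p = 0.0636) or control ZT16 replicate 3 (0.39, adjusted p = 0.0523). Also named in this way were Gadd45b at ZT0 (0.62 ± 0.14, adjusted p = 0.0225) and Ddit3 at ZT20 (0.28 ± 0.07, adjusted p = 0.0461). Each was the 1 of the 24 called at its time, where 0.854% and 0.702% of all genes passed. The Gadd45b call at ZT0 was lost without high fat replicates 1 or 2 or control replicates 3 or 4 of ZT0 (0.53 to 0.65, adjusted p between 0.052 and 0.148).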

How the data were processed

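The deposited values are log2 signals per probe set, normalized by the authors with RMA, per the submitters' processing notes, on 41 arrays of amplified RNA. How the stem cells were isolated is not given in the sources used here. Groups came from the sample labels, and every array was used. Of 45141 probe sets, 28898 carry 1 gene symbol, 551 several and 15692 none in the platform annotation, and the probe set with the highest mean stood for each of 17097 genes. No filter on dim genes and no further normalization were applied.

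Limma 3.58.1 in R 4.3.3 fitted a mean for each of the 12 groups (29 residual degrees of freedom), and a 24 h cosine per diet (35 residual degrees of freedom). P-values were two-sided and were adjusted by Benjamini-Hochberg over all genes, or over 28898 probe sets where other probe sets are compared. The diet average and the cosine of the high fat diet were checked on simulated data, and the other tests were not. Figures used matplotlib 3.10.9.

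The 6 genes, the gene lists and the rule for naming genes were chosen with earlier results of these data known. The rule took from each list up to 4 genes past the threshold with the smallest adjusted p on the diet average, at ZT8, at ZT12 and in the cosine of each diet. Exceptions are stated beside them, apart from ZT12, where more than 4 genes of each list are named. Of the lists, Trp53, Cop1, Rpl5, Bax and Gdf15 were not analysed here. Replicate numbers did not pair arrays: residuals of arrays with the same number correlated at a median of -0.03, and of those with different numbers at 0.02. The alternatives were other summaries of probe sets, leaving out dim genes, other scalings, eBayes with trend and robust fitting, a replicate block, a random block, single time points alone, and leaving out arrays or time points.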

Additional observations from a re-analysis of the deposited data

Results flagged for a closer look

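The effect of diet differed between time points by the interaction test for Mdm2 (limma, adjusted p = 0.0013), Trp53inp1 (adjusted p = 0.00125) and Ccng1 (adjusted p = 0.0334), with the values by time given above. In 3 of 42 groups of 4 arrays, 1 array lay apart from the others by Dixon's test, which chance gives in about 1 of 20 groups. Cdkn1a read 11.54 in high fat ZT12 replicate 3, against 11.44 in the other 3 arrays of the group. Cdkn1a read 11.75 in high fat ZT20 replicate 2, against 11.82 to 11.83 in the others. Mdm2 read 9.35 in control ZT20 replicate 2, against 9.12 to 9.16 in the others.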

How the results depend on the processing

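Counts of the 6 genes called moved as follows. On the diet average the count, 1, was 0 without ZT8 and 0 without ZT12. At ZT0, 1 became 0 with the mean of all probe sets, with the replicate block and with ZT0 alone. At ZT8, 1 became 2 with dim genes left out or with medians of tested genes subtracted, and 0 with ZT8 alone. At ZT12, 0 became 2 with the mean of probe sets and 1 under each scaling by array medians, and at ZT16 1 became 0 with ZT16 alone. At ZT20, 0 became 1 (Trp53inp1) with the mean of probe sets, with dim genes left out, under both scalings and without ZT8. Diet effects that differed by time, 3, were 5 with the mean of probe sets or with trended and robust eBayes, and 1 without ZT8 and ZT12, an alternative chosen after seeing the data. Time courses on the high fat diet, 6, were 3 without ZT12 and 2 without both. Cosines on the high fat diet, 3, were 1 without ZT12 and 0 with the random block (correlation 0.366), on the control diet 1 without ZT12, and their difference was called for 1 with dim genes left out. Of the other p53 targets 2 were called on the diet average with the mean of probe sets, dim genes left out, trended and robust eBayes or medians of all probe sets subtracted, and 0 without ZT8, without ZT12 or without both. The alternatives for the other lists were chosen after seeing the data: growth arrest genes called on the diet average, 4, were 1 without both, at ZT12, 11, they were 7 with dim genes left out and 4 with ZT12 alone, and p53 regulators at ZT12, 7, were 4 with ZT12 alone.

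Diet averages near 0 changed sign. Cdkn1a was 0.009 with the mean of probe sets, 0.024 without ZT8, 0.045 without both and 0.03 by its other probe set. Mdm2 was 0.087 without ZT8, 0.002 without ZT12 and 0.186 without both. Phlda3 was -0.01 without ZT12 and -0.054 without both, Ccng1 0.037 with the mean of probe sets and 0.18 by its lowest probe set, Trp53inp1 0.045 and Rpl11 -0.058 without both. The causes were not tested. With the replicate block, the Mdm2 difference at ZT0 was 0.53 (adjusted p = 0.0531), Phlda3 passed for a diet effect that differed by time (adjusted p = 0.0494), and Gadd45a kept 0.72 (adjusted p = 0.0351). Other p53 targets called at ZT12 with the block numbered 4, with Pmaip1 added and Ephx1 and Tnfrsf10b lost.

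With 1 array left out, the 6 genes called numbered 0 to 1 on the diet average, at ZT0, ZT12, ZT16 and ZT20, 0 to 0 at ZT4, 0 to 2 at ZT8, 2 to 5 for diet by time, 5 to 6 and 6 to 6 for time courses on the high fat and control diet, 1 to 3 and 0 to 0 for their cosines and 0 to 1 for the difference of cosines. Other p53 targets numbered 0 to 2 on the diet average and 1 to 7 at ZT12, growth arrest genes 3 to 7 and 5 to 11, and regulators 4 to 7 at ZT12. The number of arrays, 2 per diet at ZT8, limits precision, and signal over background is unknown.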

Other observations

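Among the genes listed around p53, 24 h cosines were called on the high fat diet for 10 of the 31 other p53 targets and on the control diet for 4, where 11.2% and 6.66% of all genes were called. On the high fat diet the smallest adjusted p belonged to the DNA polymerase gene Polk (limma, adjusted p = 0.000121, peak at ZT16.0), Dcxr (adjusted p = 0.000372, peak at ZT10.1), the mitotic gene Ckap2 (adjusted p = 0.000708, peak at ZT21.1) and Sesn1 (adjusted p = 0.00269, peak at ZT12.0). On the control diet the 4 were Ckap2 (adjusted p = 0.000285, peak at ZT0.4), Ak1 (adjusted p = 0.0227), Psrc1 (adjusted p = 0.0284) and Aen (adjusted p = 0.0465). Ckap2 and Aen were called in both diets. Of the 16 regulators 4 were called on the high fat diet and 0 on the control diet, where limma gave 8 an unadjusted p under 0.05, and the 4 were Rpl11 (adjusted p = 0.00341), Usp7 (adjusted p = 0.00626), Trp53bp2 (adjusted p = 0.016) and Trp53bp1 (adjusted p = 0.0419). The 24 growth arrest genes had 3 called on the high fat diet and 6 on the control diet. On the high fat diet they were Btg1 (adjusted p = 0.00135, peak at ZT21.6), Tob1 (adjusted p = 0.012, peak at ZT21.5) and Ddit4 (adjusted p = 0.0494, peak at ZT10.7). On the control diet the smallest adjusted p belonged to Cdkn2d (adjusted p = 0.00172, peak at ZT22.1), Cdkn2c (adjusted p = 0.0126), Foxo3 (adjusted p = 0.0126, peak at ZT9.3) and Klf4 (adjusted p = 0.0293). Whether these counts differ between the diets was not tested.

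The cosine itself differed between the diets for 6 of the listed genes, where 3.58% of all genes were called. They were 2 of the 31 other p53 targets, 2 of the 16 regulators and 2 of the 24 growth arrest genes. These 6 were named after their values were seen. On the control diet no cosine was called for Rpl11, Usp7, Dcxr and Tnfrsf10b, so their peaks there are fitted values only. How the random block or leaving out ZT12 changes the cosines of the lists was not examined. Rpl11 peaked at ZT10.0 with an amplitude of 0.16 ± 0.03 on the high fat diet and at ZT23.0 with 0.10 ± 0.03 on the control diet (adjusted p of the difference = 0.00349). Usp7 peaked at ZT0.4 on the high fat diet and at ZT9.8 on the control diet (adjusted p = 0.0122). Dcxr had an amplitude of 0.48 ± 0.08 on the high fat diet and 0.12 ± 0.08 on the control diet (adjusted p = 0.0172), and Tnfrsf10b peaked at ZT23.6 on the high fat diet and at ZT11.5 on the control diet (adjusted p = 0.0223). The kinase inhibitor Cdkn2c and the cyclin Ccng2 had amplitudes of 0.10 ± 0.05 and 0.17 ± 0.09 on the high fat diet, against 0.22 ± 0.05 and 0.36 ± 0.10 on the control diet (adjusted p = 0.0315 and 0.0427).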
